A study of Homo sapiens with 9 samples.

Results

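The genes that encode the oxidative phosphorylation (OXPHOS) machinery were examined by RNA-seq in KHM-5M cells, a human thyroid cancer cell line, after treatment with the ETS inhibitor YK-4-279. Members were the protein-coding genes of the deposited annotation whose names start with MT-ND, MT-CO, MT-ATP, MT-CYB, NDUF, UQCR, SDH, ATP5, or COX followed by a digit from 4 to 8. The rule took 116 of 58735 annotated genes, 19951 of them protein-coding, and used no measured value. Of these, 13 were encoded in mitochondrial DNA and 103 in the nucleus. The cells had been kept for 24 h with the solvent DMSO, with 0.3 μM YK-4-279 or with 1 μM YK-4-279, with 3 samples in each of the 3 groups. All groups were the same line on the same genetic background, and nothing else distinguished their labels. The study's methods name fewer biological replicates per condition than the samples labelled. Whether the 3 samples of a group were separate cultures is not given by the labels, so the p-values measure the spread between these samples, which may be technical. The question was how the mitochondrial and the nuclear genes of complexes I to V moved over the 2 doses.

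Oxidative phosphorylation takes place in the inner mitochondrial membrane. Complexes I and II pass electrons from NADH and succinate to ubiquinone, complex III passes them on to cytochrome c, and complex IV reduces oxygen, while complexes I, III and IV pump protons whose return through complex V, the ATP synthase, drives the making of ATP. Complex II is wholly encoded in the nucleus, and each of the other complexes joins nuclear subunits to subunits made inside the organelle. The mitochondrial genes are copied as long transcripts from both strands and then cut apart, whereas each nuclear gene has a promoter of its own, and ETS family factors such as GABPA (also called NRF2) bind many of these promoters. FLI1 is another ETS factor, and its fusion with EWS, which drives Ewing sarcoma, was the protein against which YK-4-279 was developed.

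The 9 libraries held 16903251 to 18238884 counted reads, so that 3 counts corresponded to 0.164 to 0.177 CPM (counts scaled to a common library total). Among the defining markers of a thyroid follicular cell, PAX8 had 2742 to 3660 counts per sample, whereas TG had 0 to 4, TSHR 0 to 2, SLC5A5 0 to 1 and NKX2-1 0 to 10. The epithelial keratin KRT8 had 22002 to 24344 counts, CDH1 0 to 5, and the leukocyte marker PTPRC 0 to 1. These differentiated thyroid markers other than PAX8 were thus largely absent from these cells. In bulk RNA, fewer cells of a kind and less RNA per cell cannot be told apart, and all levels are relative to the other RNA of the same library.

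Because the compound is described as an ETS inhibitor, the 5′ flanks of the nuclear members were searched for the ETS core CCGGAAG. The flanks of 4 genes are shown: SDHAF2 and NDUFAF4, the members that changed at 1 μM, and those of NDUFB7 and UQCR11, which hold the same motif, have RefSeq and deposited starts within 50 bases of each other and did not pass the test. The sequences are from RefSeq on GRCh38.p14, read 5′ to 3′ on the strand of the gene, and end at the base before the annotated start (the RefSeq or the deposited start, whichever lies further upstream). For SDHAF2 these starts are 82 bases apart, so its flank is cut short and shows 2 cores. From 250 bases before to 50 after its RefSeq start there were 4. Capitals mark CCGGAAG or its reverse complement CTTCCGG. The SDHAF2 flank is chr11:61429874-61430041 on the + strand, the NDUFAF4 flank chr6:96897892-96898141 on the - strand, the NDUFB7 flank chr19:14572067-14572316 on the - strand and the UQCR11 flank chr19:1605491-1605712 on the - strand.
SDHAF2: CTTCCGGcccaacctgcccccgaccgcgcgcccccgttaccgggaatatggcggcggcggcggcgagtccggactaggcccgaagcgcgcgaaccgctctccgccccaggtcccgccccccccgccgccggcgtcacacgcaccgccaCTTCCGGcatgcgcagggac
NDUFAF4: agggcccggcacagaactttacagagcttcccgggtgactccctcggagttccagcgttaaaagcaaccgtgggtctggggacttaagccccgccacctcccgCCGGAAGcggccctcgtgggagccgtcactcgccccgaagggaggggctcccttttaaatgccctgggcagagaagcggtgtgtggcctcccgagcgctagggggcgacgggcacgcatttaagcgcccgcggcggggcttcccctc
NDUFB7: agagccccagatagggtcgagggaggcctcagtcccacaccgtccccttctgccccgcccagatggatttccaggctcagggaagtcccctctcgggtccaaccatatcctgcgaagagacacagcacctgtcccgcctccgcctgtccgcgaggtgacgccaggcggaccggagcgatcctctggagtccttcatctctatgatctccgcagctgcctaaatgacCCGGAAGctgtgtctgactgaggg
UQCR11: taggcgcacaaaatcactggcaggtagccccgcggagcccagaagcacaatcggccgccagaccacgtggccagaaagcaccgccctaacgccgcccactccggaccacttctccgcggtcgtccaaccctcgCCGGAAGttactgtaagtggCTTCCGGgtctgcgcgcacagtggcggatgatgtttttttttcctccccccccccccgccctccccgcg

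Over the whole window of 300 bases, from 250 before to 50 after the RefSeq start, 83 of the 103 nuclear members had a sequence. The ETS core was present on either strand in 23 of 83 windows (27.7%), against 10.3% of all 35116 RefSeq windows of that length. The shorter core CGGAA, which lies within the longer motif, was present in 62.7% of member windows and 34.9% of all windows. A palindromic motif of NRF1, another regulator of respiratory genes, was present in 24.1% against 5.78%, and the YY1 motif AAGATGGC in 13.3% against 2.89%. The CCAAT box was about as frequent in both, at 33.7% against 34.6%, and TATAAA stood in 8.43% against 11.5%. The RefSeq start lay within 50 bases of the deposited gene's own start for 35 of the 83 genes, so some windows belong to another start than the deposited gene model's.

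At 1 μM the 23 tested members with the ETS core had a median log2 fold change of -0.04 against DMSO, and 15 of them were below 0. The 55 tested members without it had a median of -0.06, and 44 were below 0. Of the 23 with a core, NDUFAF4 and SDHAF2 passed the test, and none of the 55 without it did, while 17.6% of all genes tested passed. Tested members that had no RefSeq window were not searched. The share that passed among all genes with or without the core was not computed. No test was made of these counts, and a match is a description of letters, not evidence of binding.

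In DMSO the mitochondrial-encoded genes were for the most part expressed above the nuclear ones. On the FPKM scale, which divides reads by gene length and library size, the mean level of the 13 mitochondrial genes ranged from 199.9 ± 145 (SD, n = 3) for MT-ATP8 to 7147 ± 679.0 (SD, n = 3) for MT-CO1, with a median of 1063 over the genes. The MT-ATP8 mean was 116 FPKM without DMSO replicate 2. The 80 nuclear subunit genes that were tested had a median of 35.7 FPKM and ranged from 0.165 for COX6B2 to 454 ± 9.85 (SD, n = 3) for ATP5F1B, the catalytic beta subunit of ATP synthase. Within complexes, the nuclear median was 19.3 FPKM for complex I, 31.6 for complex II, 36.0 for complex III, 65.8 for complex IV and 39.5 for complex V. The 12 assembly factors, which help build complexes I and II but are not part of them, had a median of 7.26 FPKM. The coefficient of variation between the 3 DMSO samples had a median of 12.9% over the mitochondrial genes and 7.16% over the nuclear subunit genes.

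The most abundant nuclear-encoded subunit mRNA in each complex was NDUFS5 for complex I at 232 FPKM in DMSO, SDHB, the iron-sulfur subunit of complex II, at 40.1, UQCRH for complex III at 116, COX8A for complex IV at 289 and ATP5F1B for complex V. The lowest tested nuclear subunits were NDUFA4L2 at 0.809, SDHC at 8.68, UQCRHL at 2.02, COX6B2 at 0.165 and ATP5MG at 5.85 FPKM. UQCRH and UQCRHL are near-identical copies, so their reads may have been split between them. COX8A shares 35.4% and COX6B2 29.1% of their exon bases with another annotated gene on the same strand. Each isoform pair of complex IV was read almost wholly from the broadly expressed member. COX4I1, with 5273 to 6109 counts in DMSO, faced COX4I2 with 0 to 2, COX6A1 (789 to 892) faced COX6A2 with 0 in every sample, and COX7A2 (1597 to 1727) faced COX7A1 with 7 to 8. The testis form COX6B2 had 10 to 12 counts beside 2345 to 2401 of COX6B1, and COX8C had 0 to 1 beside 2232 to 2970 of COX8A. Complexes were assigned here by gene name, so complex I holds NDUFA4 and NDUFA4L2, although NDUFA4 is now counted as a complex IV subunit. NDUFA4 had 1802 to 2009 counts, and its hypoxia-linked relative NDUFA4L2 had 35 to 47. The same members stayed low with treatment, as at 1 μM COX4I2 and COX8C had 0 counts in every sample and COX7A1 had 2 to 8.

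The share of the library held by the mitochondrial genes overlapped between the doses. These genes took 2.85, 2.36 and 2.70% of counted reads in the DMSO samples, 2.92, 2.78 and 2.62% at 0.3 μM, and 2.59, 2.58 and 2.92% at 1 μM. The 3 groups overlapped, and DMSO replicate 2 was the lowest of the 9. The means were 2.63 ± 0.252, 2.78 ± 0.150 and 2.70 ± 0.194% (SD, n = 3 each), and without DMSO replicate 2 the DMSO mean was 2.77%. The nuclear members took 0.972, 1.01 and 0.983% of counted reads in DMSO, 0.985, 0.967 and 0.917% at 0.3 μM, and 0.903, 0.949 and 0.955% at 1 μM. The 1 μM samples lay below the DMSO samples on this raw share, but after TMM scaling the sums overlapped. No p-value was computed for these sums, which are scores over the members.

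**Figure D1:**
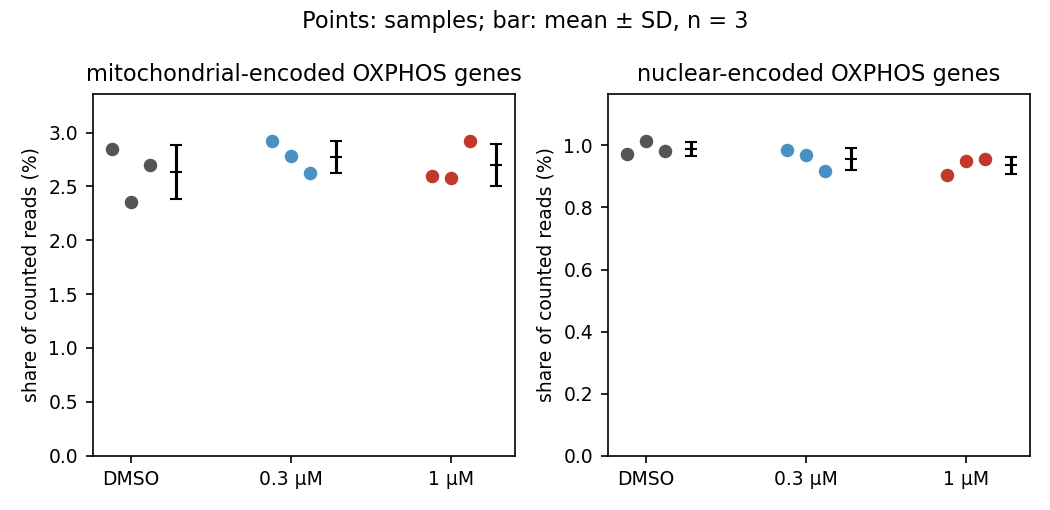
Share of counted reads (%, axis from 0) taken by the mitochondrial-encoded and by the nuclear-encoded OXPHOS genes in each sample by group, with the mean ± SD of 3 samples. Mitochondrial shares of 2.36 to 2.92% overlap between groups, and the nuclear shares at 1 μM (0.903 to 0.955%) lie below those of DMSO (0.972 to 1.01%).

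At 1 μM, 2 of the 107 members tested rose against DMSO and none fell (edgeR quasi-likelihood test, adjusted p under 0.05), while 17.6% of all 15617 genes tested passed, 7.67% higher and 9.95% lower. Both that rose were assembly factors, NDUFAF4 of complex I and SDHAF2 of complex II, and none of the 93 subunit genes tested passed, by edgeR or by DESeq2. At an unadjusted p under 0.05 there were 20 members, 3 higher and 17 lower, against 31.9% of all genes. The other 9 members were not tested because they were too low, with at most 13 counts in any sample. These were NDUFA7, COX4I2, COX6A2, COX7A1, COX7B2, COX8C, ATP5MGL and the readthrough genes NDUFC2-KCTD14 and ATP5MF-PTCD1. The 95% interval of the change lay within 1.5-fold in either direction for 94 of the 107 members, against 64.1% of all genes tested.

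SDHAF2 (ENSG00000167985, chr11:61430042-61447529, GRCh38) encodes the factor that attaches the FAD cofactor to the catalytic subunit SDHA. It had 57, 35 and 61 counts in the DMSO samples, 79, 67 and 54 at 0.3 μM, and 119, 88 and 108 at 1 μM. Every 1 μM sample lay above every other sample, while 0.3 μM overlapped DMSO. The scaled level was 2.94 ± 0.890 CPM in DMSO, 3.76 ± 0.676 at 0.3 μM and 6.03 ± 0.796 at 1 μM (SD, n = 3 each). The log2 fold change at 1 μM was 1.01 (SE 0.22, 95% interval 0.54 to 1.49, edgeR adjusted p = 0.0061), and it was the only member that both passed the test and changed by over 1.5-fold, against 5.51% of all genes. Of its exon bases, 44.8% are shared on the same strand with AP003108.2, which had 2 to 9 counts per sample, so the reads of these genes are not fully separable. It was 1 of 7 nuclear members with at least 20% of their exon bases shared in this way, the others being SDHA, NDUFA13, NDUFB8, NDUFV2, COX6B2 and COX8A. SDHA itself, whose flavin SDHAF2 attaches, had 5520, 5935 and 5609 counts in DMSO and 5257, 5304 and 4961 at 1 μM (log2 fold change -0.16, edgeR adjusted p = 0.058).

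NDUFAF4 (ENSG00000123545, chr6:96889313-96897881, GRCh38), an assembly factor of complex I, had 151, 163 and 149 counts in DMSO, 165, 180 and 165 at 0.3 μM, and 223, 220 and 239 at 1 μM. The 3 groups did not overlap at any step on the CPM scale. The level was 8.84 ± 0.118 CPM in DMSO, 9.59 ± 0.347 at 0.3 μM and 13.1 ± 1.07 at 1 μM (SD, n = 3 each), a log2 fold change at 1 μM of 0.54 (SE 0.11, 95% interval 0.30 to 0.79, edgeR adjusted p = 0.0053). At 0.3 μM it was 0.11 (SE 0.13, edgeR adjusted p = 0.995). The other 10 assembly factors had log2 fold changes of -0.28 for NDUFAF8 to 0.06 for SDHAF3 at 1 μM, none past the threshold, and the 12 together had a median of -0.04.

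**Figure D2:**
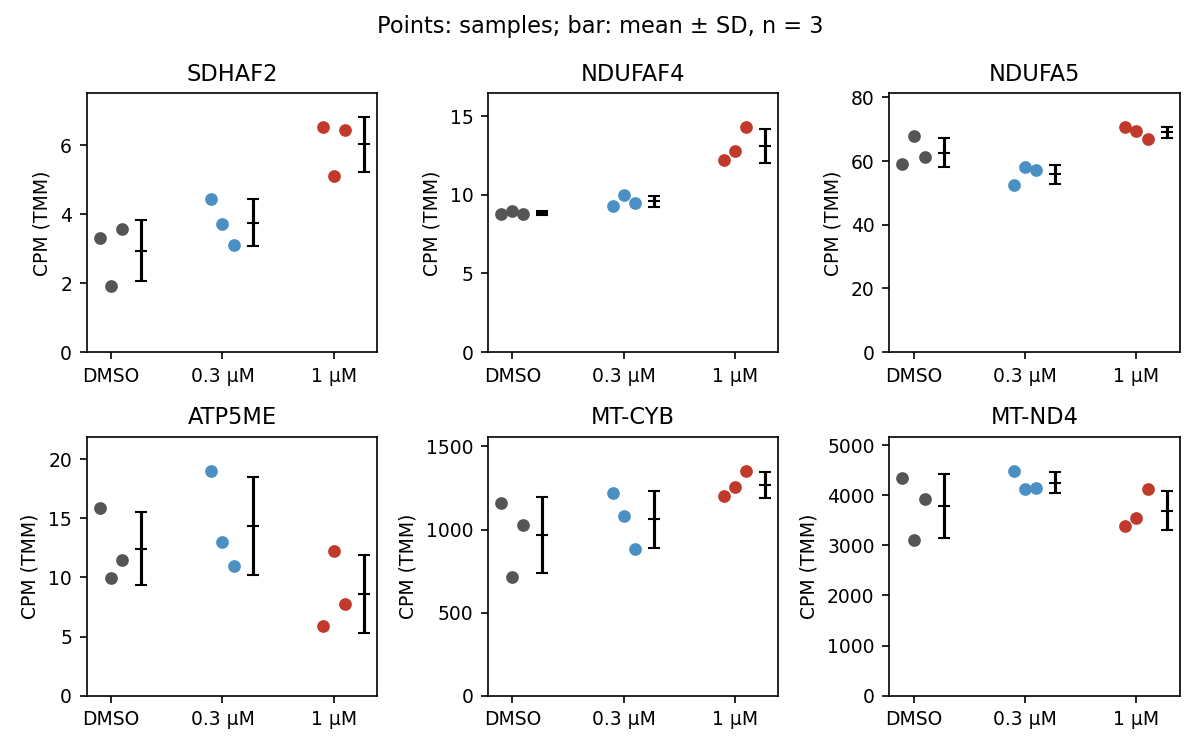
Level (CPM after TMM scaling, axis from 0) of 6 members in each sample by group, with the mean ± SD of 3 samples. SDHAF2 and NDUFAF4 are highest in the 1 μM samples, NDUFA5 is lowest at 0.3 μM, and MT-CYB at 1 μM lies above all DMSO samples, of which replicate 2 is the lowest.

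The nuclear subunits sat slightly below 0 at 1 μM without any of them passing the test. Of 80 tested, 62 had a log2 fold change below 0, with a median of -0.06, against 51.3% below 0 and a median of -0.01 over all genes. The medians were -0.06 for complex I (30 of 38 below 0), -0.05 for complex II (2 of 4), -0.10 for complex III (6 of 9), -0.06 for complex IV (11 of 12) and -0.10 for complex V (13 of 17). Members share samples and normalisation, so these counts are a description. The median difference from the DMSO mean was also taken per sample, over all 94 tested nuclear members. It was -0.02 to 0.01 in the DMSO samples and -0.09 to 0.02 at 0.3 μM. At 1 μM it was -0.10, -0.01 and 0.00 in replicates 1, 2 and 3. Replicates 2 and 3 at 1 μM thus lay within the DMSO range, and only replicate 1 lay below it. The median change of -0.06 was smaller in size than the range within either treated group and larger than the range within DMSO. The widest ranging nuclear subunits were low in counts. In DMSO the 7 nuclear members with at least 20% of their exon bases shared had a median of 3.44 CPM. The other 87 tested had a median of 78.9 CPM. Whether the sharing lowered the counts was not tested. NDUFA13, with 39, 56 and 28 counts in DMSO and 28, 27 and 22 at 1 μM, had the lowest value, -0.69 (SE 0.29, edgeR adjusted p = 0.12), and 21.0% of its exon bases are shared with other genes on the same strand.

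**Figure D3:**
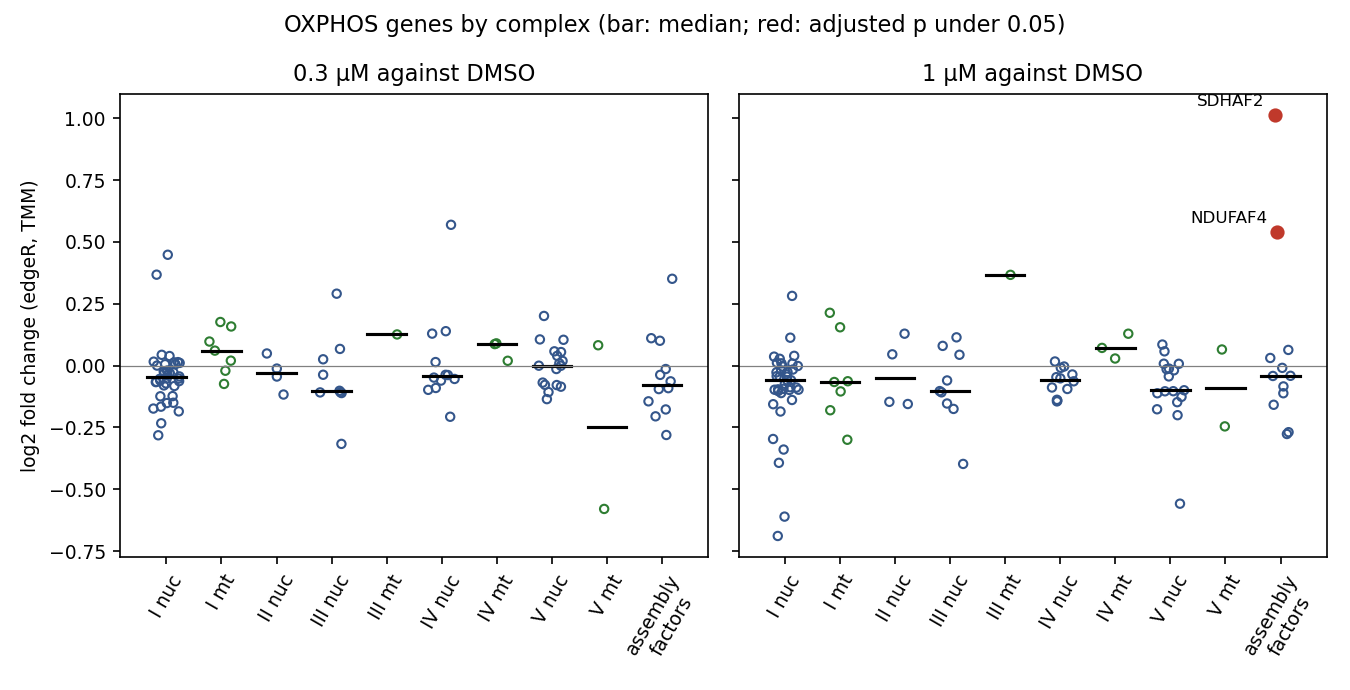
Log2 fold change of each tested subunit and assembly factor against DMSO at 0.3 μM (left) and 1 μM (right). Genes are grouped by complex and by nuclear (nuc, blue) or mitochondrial (mt, green) encoding, with the median as a bar. Red points have an adjusted p under 0.05. Medians at 1 μM lie between -0.10 and -0.04 for the nuclear groups, and SDHAF2 (1.01) and NDUFAF4 (0.54) stand above the rest at 1 μM.

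Groups of samples did not overlap between DMSO and 1 μM for 7 members higher and 9 lower, or 16 of 107, against 21.1% of all genes higher and 16.3% lower (37.4% in all). The abundant subunits among the lower ones had small differences that did not pass the test. ATP5F1B had 18177, 18725 and 18388 counts in DMSO and 17145, 16970 and 16456 at 1 μM, a log2 fold change of -0.15 (SE 0.05, 95% interval -0.26 to -0.04, edgeR adjusted p = 0.057). NDUFV1, which binds NADH in complex I, had 3358, 3582 and 3401 counts in DMSO and 3117, 3207 and 3073 at 1 μM, a log2 fold change of -0.16 (SE 0.06, edgeR adjusted p = 0.071). Under another scaling, by upper quartile factors, ATP5F1B and NDUFV1 both passed as lower. ATP5F1B also passed without DMSO replicate 2. On the higher side, SDHD, a membrane anchor of complex II, had 1141, 1277 and 1218 counts in DMSO and 1410, 1324 and 1296 at 1 μM.

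**Figure D4:**
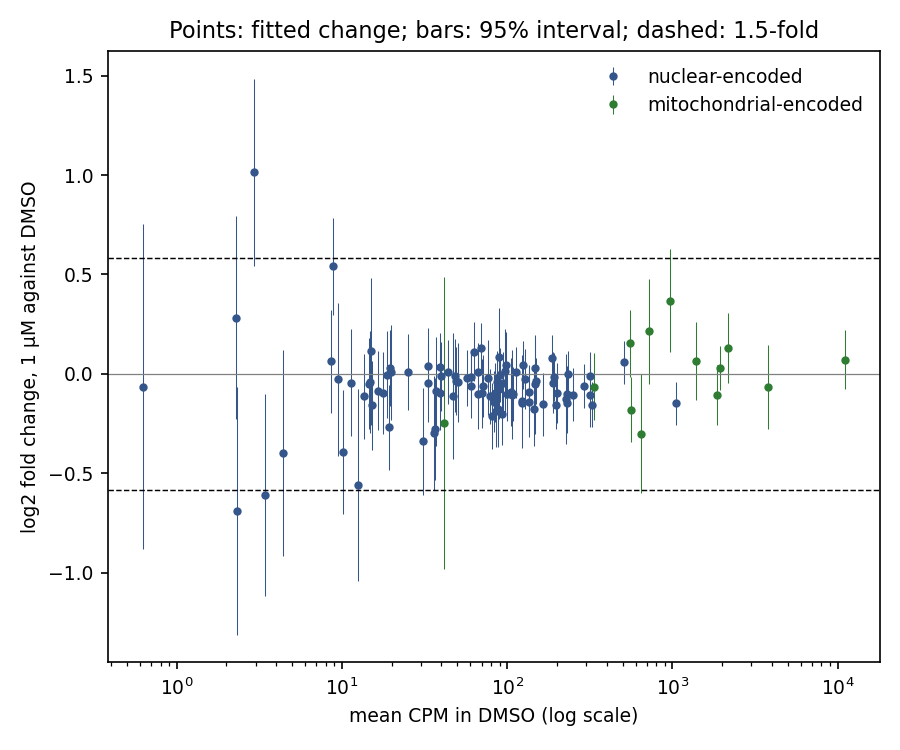
Log2 fold change at 1 μM against DMSO with its 95% interval for each of the 107 tested members, by mean DMSO level (CPM, log axis) and encoding; dashed lines mark 1.5-fold. Intervals narrow with level, 94 lie wholly between the lines, and SDHAF2 is the point above 1.

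The mitochondrial genes lay on both sides of 0 at 1 μM. None of the 13 passed the test; 6 were below 0 and 7 above, with a median log2 fold change of 0.03. With a trend with gene length removed from the counts, 4 passed, all higher (MT-ND2, MT-CO2, MT-CO3 and MT-CYB), and 10 of 13 lay above 0. With a minimum of 1 count 5 passed, MT-ND1, MT-ND2, MT-CO3 and MT-CYB higher and MT-ND4L lower. Of all genes, 17.9% passed with the length trend removed and 9.76% with a minimum of 1 count. In genome order, the values were 0.21 for MT-ND1, 0.15 for MT-ND2, 0.07 for MT-CO1, 0.03 for MT-CO2, -0.25 for MT-ATP8, 0.06 for MT-ATP6, 0.13 for MT-CO3, -0.06 for MT-ND3, -0.30 for MT-ND4L, -0.07 for MT-ND4, -0.10 for MT-ND5, -0.18 for MT-ND6 and 0.37 for MT-CYB. The 3 mitochondrial subunits of complex IV, MT-CO1 to MT-CO3, lay within 0.13 of 0. With the length trend removed, however, MT-CO2 was at 0.21 (edgeR adjusted p = 0.012) and MT-CO3 at 0.28 (edgeR adjusted p = 0.023). The genes from MT-ND3 to MT-ND6, all subunits of complex I, lay below 0, except that MT-ND3 (0.22) and MT-ND6 (0.04) lay above 0 once that trend was removed. MT-CYB, the last of the order, lay above 0 with or without that trend (0.46 without it). Their reads come from a few long transcripts, so the genes are not independent of each other.

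MT-CYB (ENSG00000198727, MT:14747-15887) encodes cytochrome b, the only mitochondrial subunit of complex III. It had 19908, 12984 and 17522 counts in DMSO, 21642, 19485 and 15314 at 0.3 μM, and 21884, 21571 and 22637 at 1 μM. Every 1 μM sample lay above every DMSO sample. The log2 fold change of 0.37 (SE 0.12, 95% interval 0.11 to 0.63) had an edgeR adjusted p of 0.0501, at the threshold itself. With DESeq2 it was 0.38 with an adjusted p of 0.198. Under the other 7 alternatives that kept all samples MT-CYB passed, with an edgeR adjusted p of 1.9e-11 with a minimum of 1 count and of 0.0138 to 0.0499 under the rest. Further, without DMSO replicate 2, the lowest sample, it was 0.20 with an edgeR adjusted p of 0.027. Over all single samples left out, the edgeR adjusted p ran from 0.0052 (without DMSO replicate 1) to 0.136 (without 1 μM replicate 3). Of the 9 nuclear subunits of complex III, 6 were below 0 and none passed the test.

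The ratio of MT-CYB to MT-ND5 counts, genes that lie on either side of MT-ND6, was chosen after its values were seen. It was 0.581, 0.411 and 0.555 in DMSO, 0.595, 0.547 and 0.482 at 0.3 μM, and 0.735, 0.739 and 0.690 at 1 μM. All 1 μM samples lay above the other 6, which overlapped each other. Within the mitochondrial reads, MT-CYB took 3.11 to 4.10% in DMSO and 4.54 to 4.79% at 1 μM, while MT-ND5 took 6.91 to 7.57% and 6.29 to 6.58%. These were not the only genes whose shares did not overlap. MT-ND1, MT-ND2 and MT-CO3 also took more in every 1 μM sample than in any DMSO sample, and MT-ND6 took less. The shares of the remaining mitochondrial genes overlapped. MT-CO1 took 41.8 to 43.1% and 42.9 to 43.7%, so the most abundant transcript overlapped between the groups.

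**Figure D5:**
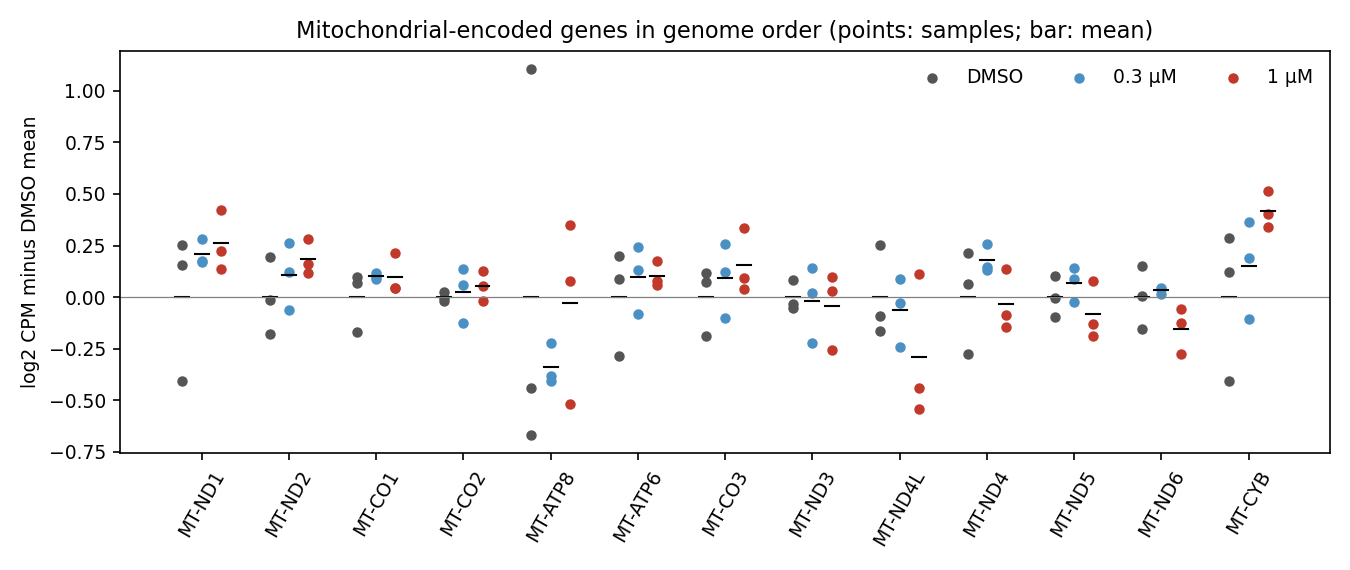
Log2 CPM minus the DMSO mean for the 13 mitochondrial-encoded genes in genome order, with each sample as a point and the group mean as a bar. MT-CYB at 1 μM lies above the DMSO samples, and a single DMSO sample, replicate 2, sits far above the others for MT-ATP8.

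MT-ATP8 (MT:8366-8572), a small ATP synthase subunit whose gene overlaps MT-ATP6 over 22.2% of its bases, was decided by a single library. DMSO replicates 1 and 3 had 383 and 443 counts and replicate 2 had 1380, beside 480, 480 and 526 at 0.3 μM and 821, 642 and 412 at 1 μM. With all samples the log2 fold change at 1 μM was -0.25 (SE 0.34, edgeR adjusted p = 0.67), and without DMSO replicate 2 it was 0.55 (edgeR adjusted p = 0.025). The same sample was lowest of all 9 for MT-ND1 (9645 counts, against 13331 to 15795 elsewhere) and for MT-CYB. Without it, 11 of 108 members passed the test at 1 μM, 4 higher and 7 lower, against 18.6% of all genes. The count of 2 thus rests on that sample being kept. NDUFAF4 and SDHAF2 were among those 11.

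At 0.3 μM no member passed the test, as no gene of the 15762 tested did (0% called, edgeR). By DESeq2 no member passed either. Samples did not overlap for 2 members higher and 6 lower, against 4.24 and 4.23% of all genes (8.47% in all). At an unadjusted p under 0.05 there were 2 members, NDUFAF8 at -0.28 and NDUFA5 at -0.17, against 3.77% of all genes. The median log2 fold change was -0.04 over the 94 nuclear members, with 65 below 0 against 49.7% of all genes, and 0.08 over the 13 mitochondrial genes, with 3 below 0. The 95% interval lay within 1.5-fold in either direction for 97 of 107 members, against 71.8% of all genes tested. Both comparisons with DMSO use the same 3 DMSO samples, so shared deviations enter both.

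Between the doses, 6 of 107 members differed, 3 higher and 3 lower at 1 μM, against 12.6% of all genes tested (5.85% higher and 6.75% lower). Of these, 2 were past 1.5-fold, SDHAF2 and ATP5ME, while 3.25% of all genes both passed and changed by over 1.5-fold. Over all 107 members 57 differences were below 0, against 49.5% of all genes, and samples did not overlap for 9 members higher and 7 lower, against 17 and 14.8% (31.9% in all). NDUFA5, an accessory subunit of complex I, had 930, 1047 and 993 counts at 0.3 μM and 1288, 1193 and 1121 at 1 μM (log2 difference 0.30, SE 0.07, edgeR adjusted p = 0.011). In DMSO it had 1015, 1231 and 1042 counts, and the 1 μM samples overlapped those (0.11, edgeR adjusted p = 0.28). NDUFAF4 (0.44, SE 0.12, edgeR adjusted p = 0.021) and SDHAF2 (0.67, SE 0.19, edgeR adjusted p = 0.025) were also higher at 1 μM. Lower were MT-ND4 (-0.21, SE 0.06, edgeR adjusted p = 0.036) and MT-ND6 (-0.19, SE 0.06, edgeR adjusted p = 0.046), both subunits of complex I. MT-ND6 lies alone on the light strand and its mRNA mostly lacks a poly(A) tail, which the library preparation selected for. On leaving out single samples, NDUFA5 passed each time, and the other 5 lost the call at least once. The edgeR adjusted p of NDUFAF4 rose to 0.112 without 1 μM replicate 3 and was also over the threshold without 1 μM replicate 2 or 0.3 μM replicate 1. That of SDHAF2 rose to 0.0957 without 1 μM replicate 1 and was over it without 1 μM replicate 3 or 0.3 μM replicate 2 or 3. MT-ND4 reached 0.139 and MT-ND6 0.204 without 1 μM replicate 1, and ATP5ME reached 0.165 without 0.3 μM replicate 1, each losing the call without 4 of the 6 samples in turn. With all 9 samples in a single fit MT-ND4 (edgeR adjusted p = 0.114) and MT-ND6 (0.0757) lost the call, and MT-ND6 was at -0.07 (edgeR adjusted p = 0.468) with the length trend removed.

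ATP5ME (chr4:672436-674338, GRCh38), a subunit of the membrane part of ATP synthase, had 337, 235 and 191 counts at 0.3 μM and 107, 210 and 129 at 1 μM. The samples overlapped, and the log2 difference was -0.75 (SE 0.22, edgeR adjusted p = 0.032). With DESeq2 the call was lost (adjusted p = 0.215). MYL5 overlaps 61.3% of its exon bases on the other strand, and it had 45 to 84 counts per sample. The log2 fold change of MYL5 at 1 μM was -0.60 against DMSO (edgeR adjusted p = 0.043) and -0.32 against 0.3 μM (edgeR adjusted p = 0.335). Whether the counting used strand is not settled by the sources used here, so reads of the pair cannot be told apart if it did not.

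The genes around the complexes, none of them members, were counted beside the members from hand-written lists. Of 16 electron carriers and subunits outside the naming rule none passed at 1 μM against DMSO, and cytochrome c (CYCS) differed between the doses (0.26, edgeR adjusted p = 0.015). Of the assembly factors outside the rule, those of complex I gave 1 lower of 11 (COA1, -0.21), of complex III 1 lower of 6 (UQCC2, -0.35), of complex IV 1 higher of 23 (COA7, 0.40, edgeR adjusted p = 0.0048) and of complex V none of 5. For the mitochondrial RNA handling list, 4 of 19 rose and none fell (PRORP was not found by that name), against the 17.6% of all genes called. TRMT10C, part of the enzyme that frees mitochondrial tRNAs from their precursor, had 176, 179 and 180 counts in DMSO, 176, 200 and 168 at 0.3 μM and 312, 260 and 278 at 1 μM (log2 fold change 0.65, SE 0.10, edgeR adjusted p = 9.2e-04). FASTKD5, which acts at junctions that carry no tRNA, rose by 0.45 (SE 0.08, edgeR adjusted p = 0.0024), and GRSF1, an RNA granule protein, by 0.27 (SE 0.07, edgeR adjusted p = 0.018). All 3 named genes passed the test between the doses too.

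Among 20 genes of mitochondrial DNA maintenance and transcription, 2 rose and 2 fell, a share of 20% beside the 17.6% of all genes called. The helicase TWNK rose by 0.49 (edgeR adjusted p = 0.015) and MTERF3 by 0.33 (edgeR adjusted p = 0.019). MTERF2 (-0.65, edgeR adjusted p = 0.017) and POLG2 (-0.33, edgeR adjusted p = 0.026) were lower. Among 13 nuclear regulators of respiratory genes, PPRC1 (0.34, edgeR adjusted p = 0.012) and PPARGC1B (0.33, edgeR adjusted p = 0.029) rose and SP1 (-0.19, edgeR adjusted p = 0.023) fell, or 23.1% of the list. GABPA, the DNA-binding subunit of the ETS factor known to bind many respiratory promoters, had 760, 766 and 762 counts in DMSO, 665, 834 and 728 at 0.3 μM and 910, 726 and 782 at 1 μM, and the groups overlapped.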

How the data were processed

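RNA-seq was measured in 9 samples of KHM-5M cells, 3 for each of DMSO, 0.3 μM and 1 μM YK-4-279, after 24 h, and grouped by their labels. Poly(A) RNA was selected before library preparation. Per the submitters' processing notes the tools were HISAT2 2.0.5, featureCounts 1.5.0-p3 and DESeq2 1.20.0, while the study's methods name HTseq for counting and GRCh38 as the genome; whether counting used strand is not given in the sources used here. The authors deposited whole-number read counts per gene without normalization, and FPKM values that divide counts by gene length and library size. The deposited columns of the authors' own comparisons (log2 fold changes, p-values and adjusted p-values) were not used.

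Counts of the 2 groups compared were tested with edgeR 4.0.16 (filterByExpr with a minimum count of 10, TMM, quasi-likelihood test) in R 4.3.3, with Benjamini-Hochberg adjustment over all genes tested. FPKM served only to compare levels between genes. DESeq2 1.42.0, other scalings, filters, a length trend, a block on replicate number and leaving out each sample were alternatives. The steps were tested on simulated data. The members, complexes and gene lists were chosen with earlier results of these data known. The genes named are all mitochondrial genes, nuclear genes that passed the test, the most and least abundant subunits and isoform pairs, and members named beside a result after their values were seen. Exon overlap was taken from GENCODE v44, and 52 of 116 members had the same gene ends there. Same-group samples differed beyond sampling noise (3.20 to 10.7 by chi-square over its degrees of freedom). With 3 samples against 3, changes of low genes were measured with wide intervals.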

Additional observations from a re-analysis of the deposited data

How the results depend on the processing

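The number of OXPHOS genes that passed at 1 μM against DMSO was 2 of 107, beside 17.6% of all genes. It was 6 of 107 with upper quartile factors (17.5% of all genes) and 10 of 114 with a minimum of 1 count (9.76%). With the gene length trend removed it was 6 of 107 (17.9%). On leaving out single samples it was 2 to 11. It was 6 of 107 without DMSO replicate 1 (15.3% of all genes) and 11 of 108 without DMSO replicate 2 (18.6%). Without 1 μM replicate 3 it was 5 of 108 (11.2%). The calls added with the length trend removed were all of mitochondrial genes, as were 5 of those added with a minimum of 1 count. The others added with that minimum were ATP5ME, NDUFA3 and NDUFB1, all lower. Upper quartile factors added MT-CYB as higher and the nuclear subunits ATP5F1B, NDUFV1 and SDHA as lower. Leaving out DMSO replicate 2 added the nuclear subunits ATP5F1B, ATP5MC1, ATP5ME, ATP5PD, NDUFB1 and NDUFB8, all lower, beside MT-ATP8, MT-CYB and MT-ND6. The rise of NDUFAF4 and SDHAF2 passed in each of these settings. The number that both passed and changed by over 1.5-fold was 1, and 1 to 2 on leaving out a sample (2 without DMSO replicate 2, 1 μM replicate 1 or 1 μM replicate 2). At 0.3 μM against DMSO the number that passed was 0, and 1 (MT-ATP8, lower) with a minimum of 1 count (0.0926% of all genes). Between the doses the number that passed was 6 of 107 (12.6% of all genes), and 10 of 113 with a minimum of 1 count (7.05%). On leaving out a sample it was 2 to 8 of 107. It was 3 without 0.3 μM replicate 1 (9.77% of all genes) and 2 without 0.3 μM replicate 2 (7.89%). It was 8 without 0.3 μM replicate 3 (11.8%) and 2 without 1 μM replicate 1 (7.3%). NDUFA5 passed in all of these. The median of the mitochondrial genes at 1 μM was 0.03, and 0.21 with the gene length trend removed. On leaving out a sample it ranged from -0.00 to 0.06. MT-ATP8 turned from -0.25 to 0.55 without DMSO replicate 2, and ranged from -0.54 to 0.55 on leaving out a sample. The cause of these changes was not tested. The nuclear median stayed between -0.09 and -0.03. Correlations of deviations were -0.05 to 0.11 for same-numbered samples and -0.09 to 0.07 for differently numbered ones. Each deviation was taken from a mean of 3 samples, so these values cannot decide whether the numbers pair the samples. With the replicate block, 3 members passed at 1 μM (MT-CYB added), 0 at 0.3 μM and 6 between the doses, with MT-CYB in place of MT-ND6. Of all genes, 13.6, 0.00634 and 11.3% passed with it. Of the values of named genes under the alternatives, 459 kept their sign and their side of the threshold, 30 changed sign without passing in either setting (15 genes, each within 0.25 of 0 with all samples), 24 newly passed, 24 no longer passed and 1 passed with the other sign.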

Other observations

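Of 25 glycolysis genes and lactate transporters in a hand-written list, 3 rose and 2 fell at 1 μM against DMSO (edgeR adjusted p under 0.05, with 17.6% of all genes called), with a median log2 fold change of 0.04 over the list and -0.01 over all genes. The 3 that rose carry glucose or lactate across the cell membrane. SLC16A3, a lactate exporter, had 3178, 2554 and 2662 counts in DMSO, 3165, 2965 and 2708 at 0.3 μM and 4138, 4278 and 3754 at 1 μM (log2 fold change 0.51, SE 0.08, edgeR adjusted p = 9.9e-04). SLC16A1 rose by 0.32 (SE 0.06, edgeR adjusted p = 0.0029) and the glucose transporter SLC2A1 by 0.23 (SE 0.07, edgeR adjusted p = 0.044). The enzymes ENO2 (-0.25, SE 0.06, edgeR adjusted p = 0.0079) and PFKM (-0.23, SE 0.06, edgeR adjusted p = 0.014) fell. No gene of the list passed at 0.3 μM by edgeR.

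Of 21 citrate cycle genes, 1 fell at 1 μM (4.76%, beside 17.6% of all genes called, 9.95% lower), IDH2, with 1035, 1035 and 998 counts in DMSO and 942, 903 and 844 at 1 μM (log2 fold change -0.21, SE 0.06, edgeR adjusted p = 0.036). The median of the list was 0.01.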
